A study of Mus musculus with 4 samples.

Results

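Neurotrophin signalling was examined through 8 genes, chosen by symbol from the gene tables: the ligand genes Bdnf and Ntf3, the receptor genes Ntrk2, Ntrk3 and Ngfr, and the sortilin family genes Sort1, Sorcs1 and Sorcs3. All 8 were found among the 46983 genes of the tables. Their transcripts were counted in 7763 nuclei from the forebrain of male C57Black/6 mice aged 3 months, in 4 libraries of single-nucleus RNA sequencing (snRNA-seq). These were a sham control and, per the labels, day 1, day 3 and day 7 after permanent middle cerebral artery occlusion (MCAO), a stroke model made by coagulating and then cutting the artery, which leaves a small infarct in the parietal cortex. Each library pooled the hemispheres of 3 mice, so each group held 1 library, no difference has a replicate check, and no label separates nuclei of the infarct from those of the rest of the hemisphere. The labels' surgical text speaks of intact cortical tissue as the control and their extraction text of forebrain hemispheres for every condition. The sham library held 333 nuclei with striatal markers.

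In the study's count of nuclei per time point, day 7 has the larger number and day 3 the smaller, whereas the deposited library labelled day 3 held more nuclei than that labelled day 7. The labels of these 2 libraries may therefore be exchanged. This rests on the numbers of nuclei alone, and no other measure was set beside the labels. The deposited labels were kept, day 3 and day 7 below name libraries as labelled, and no order in time is read from them. Values of the 4 libraries are always given in the order sham control, day 1, day 3 and day 7.

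Neurotrophins are secreted growth factors that keep neurons alive and shape their synapses. Brain-derived neurotrophic factor, the product of Bdnf, binds the receptor tyrosine kinase TrkB, encoded by Ntrk2, and neurotrophin-3, the product of Ntf3, prefers TrkC, encoded by Ntrk3. Their uncleaved precursors bind the p75 receptor, encoded by Ngfr, together with the sorting receptor sortilin, encoded by Sort1, to which the products of Sorcs1 and Sorcs3 are related. In the adult cortex and hippocampus Bdnf is made mainly by glutamatergic neurons, in which electrical activity raises its transcription, and striatal neurons receive much of their supply from cortical axons. Ntrk2 also gives a truncated TrkB without the kinase domain, which astrocytes carry. The counts here cover whole genes, exons and introns together, so neither truncated from full-length receptors nor the alternative first exons of Bdnf can be told apart.

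On GRCm38, Bdnf lies at chr2:109674700-109727007 on the plus strand and Ntf3 at chr6:126101412-126166910 on the minus strand. Ntrk2 lies at chr13:58806569-59133970 (plus), Ntrk3 at chr7:78175959-78738012 (minus) and Ngfr at chr11:95568818-95587735 (minus). Sort1 lies at chr3:108284082-108361511 (plus), Sorcs1 at chr19:50143299-50678646 (minus) and Sorcs3 at chr19:48206025-48805505 (plus). Genes that overlap these 8 and have counts held at most 0.381% of the UMIs of the gene they overlap, the highest being Gm9885 within Ntrk3 with 136 UMIs (UMI, unique molecular identifier). The sources do not say which strand was counted.

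The promoters of the activity-regulated ligand are shown because Bdnf and a list of activity-regulated genes are set side by side below. RefSeq promoter windows of GRCm38.p6, from 250 bases before to 50 after a start, were found for 6 of the 8 genes, 13 windows in all, of which 7 belong to Bdnf. The letters searched for on both strands were TGACGTCA and CACGTCA (a full and a partial cyclic-AMP response element), TGACTCA (the AP-1 element), CATATG and CACGTG (E-box forms). The first and the third stood in no window of the 8 genes and in 1.79% and 5.20% of all 32851 windows. CACGTCA stood in 1 Bdnf window and in 2.01% of all windows, CATATG in 2 Bdnf windows and in 3.91%, and CACGTG in 1 Ntf3 window and in 7.15%. The bases before the start are printed for both Bdnf windows that held a match, with the matches in capitals, which begin at -49 (CATATG) and -37 (CACGTCA) in window A and at -189 (CATATG) in window B, counted with the start base as 0.
Bdnf window A, chr2:109692186-109692435, plus strand: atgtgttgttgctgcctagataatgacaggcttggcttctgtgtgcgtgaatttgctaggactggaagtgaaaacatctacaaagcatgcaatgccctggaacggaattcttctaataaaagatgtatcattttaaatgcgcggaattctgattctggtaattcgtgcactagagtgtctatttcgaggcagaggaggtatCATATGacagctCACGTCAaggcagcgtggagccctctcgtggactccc
Bdnf window B, chr2:109692777-109693026, plus strand: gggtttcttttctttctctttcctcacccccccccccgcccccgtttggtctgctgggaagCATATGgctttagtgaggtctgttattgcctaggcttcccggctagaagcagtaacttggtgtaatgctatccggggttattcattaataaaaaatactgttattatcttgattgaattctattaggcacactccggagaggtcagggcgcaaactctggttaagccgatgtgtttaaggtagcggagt
A match is a description of these letters. The letters searched for were not among the lists fixed beforehand and the Bdnf windows are only 7, so no enrichment is read from the shares. The counts per gene cannot tell from which start a transcript came.

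The libraries held 23285489 to 42963698 UMIs, of which 51.6% to 60.4% lay in called nuclei, and 2114, 1018, 3061 and 1570 nuclei remained after doublets were removed. Their median depth was highest in the day 1 library, at 11029.5 UMIs against 6407, 5449 and 7040.5 in the others. Only 9 barcodes occurred in 2 or more libraries. Nuclei were clustered without the genes described here and named from marker genes as classes called "-like". Of these, 14 held at least 20 nuclei in every library: 5 glutamatergic (upper-layer, middle-layer and deep-layer cortical, subcortical, and an "other glutamatergic" class of 4 clusters with no layer name), subcortical peptidergic, striatal projection neuron, Lhx6 and Adarb2 interneuron, other GABAergic, astrocyte, oligodendrocyte, oligodendrocyte precursor (OPC) and microglia. Their defining markers were present, for example Mog at 891 to 1197 CPM in the oligodendrocyte-like class, Cx3cr1 at 384 to 669 in the microglia-like class and Adora2a at 64.3 to 74.6 in the striatal class. The vesicular glutamate transporter gene Slc17a7 was still counted at 74.1 to 100.7 CPM in microglia-like, 23.8 to 82.0 in oligodendrocyte-like and 27.7 to 65.3 in astrocyte-like nuclei, and the part of RNA from other cells in low glial values was not tested unless a value below bears on it.

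Levels are in counts-per-million (CPM), the share of a gene among the UMIs of all nuclei of 1 class in 1 library, with an exact Poisson 95% interval. A ratio to sham control carries an exact conditional binomial 95% interval in parentheses. Both intervals cover counting error only, without the spread between mice or libraries. Free RNA, from barcodes with too few UMIs to be nuclei, was used to compute the level expected if every nucleus carried the same number of free UMIs. A ratio was called higher or lower when it passed 1.5-fold with at least 20 UMIs over both libraries. Sums of at most 3 UMIs were taken as not distinguishable from absence at this depth.

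The 8 genes differed widely in abundance. Over all nuclei, Ntrk2 gave 37321 UMIs, Sorcs1 35938, Ntrk3 35679, Sorcs3 21514, Sort1 8045, Bdnf 1183, Ntf3 272 and Ngfr 18. Intronic reads make long genes count more, so levels were compared between genes only per kilobase of gene. This takes counts to grow in proportion to gene length, which was not tested, and the order of genes depends on it. Per kilobase, Ntrk2 stood at 1.77, 1.64, 1.98 and 1.62 CPM per kb over all nuclei and Sort1, a far shorter gene, at 1.60, 1.75, 1.62 and 1.54 CPM per kb. Sorcs1 at 1.03, 1.03, 1.10 and 1.01 and Ntrk3 at 0.941, 1.03, 1.03 and 0.965 CPM per kb came next. Sorcs3 stood at 0.484, 0.609, 0.578 and 0.581 CPM per kb, Bdnf at 0.356, 0.457, 0.322 and 0.299 and Ntf3 at 0.0463, 0.0719, 0.0635 and 0.0830. Ngfr was the lowest, at 0.00321, 0.0122, 0.0225 and 0.0197 CPM per kb. Ntrk2, Ntrk3 and the 3 sortilin family genes were thus counted above both ligands per kilobase in each library, and Ngfr below them.

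**Figure D1:**
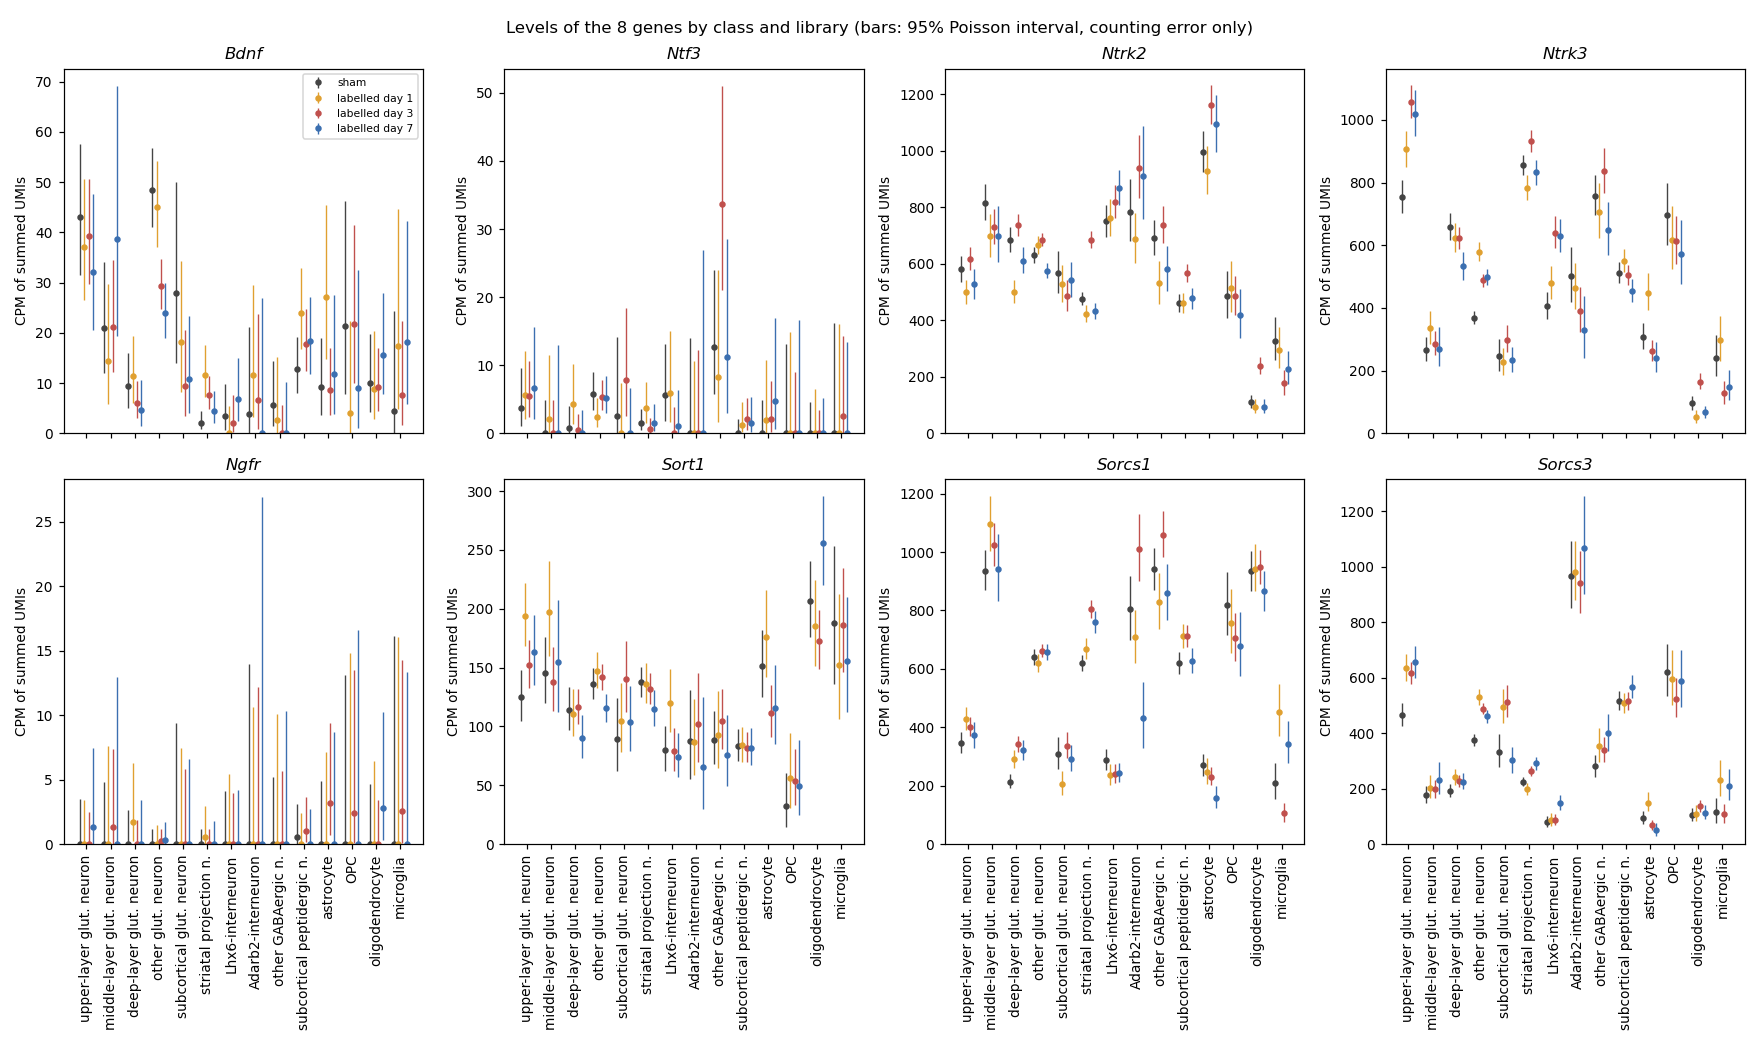
Levels of the 8 genes in CPM (y axis, linear and starting at 0, a scale of its own in each panel) in 14 classes of nuclei (x axis), with the 4 libraries as coloured points and exact Poisson 95% intervals as bars. Ntrk2 was highest in the astrocyte-like class (929 to 1162 CPM), Ntrk3 was among the highest in the striatal class (783 to 932), and Sorcs3 was highest in the Adarb2 interneuron-like class (939.6 to 1066).

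Bdnf was counted mainly in glutamatergic classes. In the other glutamatergic class it gave 153, 112, 139 and 78 UMIs from 241, 124, 403 and 229 nuclei, which is 48.5, 45.0, 29.3 and 23.9 CPM. The sham and day 1 levels lay above those of the day 3 and day 7 libraries, and their intervals did not overlap those of either. In the upper-layer class Bdnf stood at 43.1, 37.1, 39.2 and 32.1 CPM on 46, 40, 58 and 24 UMIs, and in this class the 4 intervals overlapped. The sham levels of these 2 classes, the highest of the 14, did not differ beyond counting error. Among the neuronal classes, subcortical glutamatergic nuclei followed in sham control, with 28.0, 18.1, 9.44 and 10.8 CPM. Then came middle-layer nuclei with 21.0, 14.4, 21.2 and 38.6 and peptidergic nuclei with 12.8, 23.8, 17.7 and 18.4. Deep-layer nuclei were low, at 9.34, 11.3, 6.00 and 4.58 CPM. In the 2 named interneuron classes and the other GABAergic class no library exceeded 6 UMIs. In glia outside the astrocyte-like class the sums were also small, 8, 5, 10 and 11 UMIs in oligodendrocyte-like, 6, 1, 9 and 2 in OPC-like and 1, 4, 3 and 5 in microglia-like nuclei. Their levels were not below those of every glutamatergic class. OPC-like nuclei stood at 21.3, 4.01, 21.8 and 8.99 CPM, with a sham free RNA level of 2.72. Oligodendrocyte-like nuclei stood at 10.0, 8.74, 9.22 and 15.5 CPM and microglia-like nuclei at 4.38, 17.4, 7.66 and 18.1. The sham free RNA levels of these 2 classes were 5.16 and 4.59 CPM. A cluster with dentate granule markers stood at 90.4, 82.8, 31.7 and 35.6 CPM, but held only 4, 17, 45 and 45 nuclei and is outside the 14 classes.

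The ratio of Bdnf to sham control in the other glutamatergic class was 0.928 (0.721 to 1.19) at day 1, 0.605 (0.477 to 0.766) in the library labelled day 3 and 0.494 (0.371 to 0.653) in that labelled day 7. Both of the last passed 1.5-fold, and the comparisons share 1 sham library. The difference was seen within clusters of the class. In the largest, led by Rspo2 and Gfra2, Bdnf stood at 54.0, 38.0, 26.6 and 24.8 CPM, and in that led by Npnt and Parm1 at 35.9, 24.3, 16.3 and 8.20 CPM. In the cluster led by Tfap2d and Ndst4 the levels were 40.5, 58.8, 26.3 and 30.2 CPM, highest at day 1. In the small cluster led by Nr4a2 and Oprk1 the levels were 65.4, 67.9, 72.0 and 31.3 CPM on 15, 6, 28 and 4 UMIs, without a lower level in the day 3 library. Thinning every nucleus to 1000 UMIs moved the day 3 ratio to 0.769, within 1.5-fold, whereas the day 7 ratio passed 1.5-fold under all 11 alternatives (0.443 to 0.564).

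In striatal projection neuron-like nuclei, which are inhibitory neurons with dopamine receptors, Bdnf gave 7, 22, 24 and 9 UMIs, or 2.14, 11.6, 7.66 and 4.42 CPM. The free RNA level in these nuclei was 1.30, 1.86, 1.91 and 1.36 CPM, so the sham sum was close to it. The ratio was 5.42 (2.23 to 15.0) at day 1 and 3.58 (1.49 to 9.83) in the day 3 library, both past 1.5-fold. At day 1, 59.1% of the Bdnf UMIs came from 1 nucleus, and without the top nucleus of each library the ratio was 3.10. In the day 3 library that share was 37.5%, and without the top nucleus of each library the ratio was 3.13. When the mean over nuclei replaced the summed UMIs, the ratios were 1.95 and 1.79. By cluster, that led by Drd3 and Ntn1 held 1, 14, 10 and 6 UMIs and 1.06, 28.7, 16.7 and 11.02 CPM, and 13 of its 14 day 1 UMIs came from 1 nucleus. The larger cluster, led by Drd2 and Rgs9, held 6, 8, 14 and 3 UMIs and 2.58, 5.68, 5.52 and 2.01 CPM.

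Peptidergic neuron-like nuclei, marked by Baiap3 and Ebf2, held 23, 37, 35 and 25 Bdnf UMIs, and the day 1 ratio was 1.86 (1.08 to 3.28). Astrocyte-like nuclei held 7, 14, 8 and 5 UMIs, 9.23, 27.1, 8.57 and 11.8 CPM against a free RNA level of 2.58, 3.55, 4.12 and 2.30. Their day 1 ratio was 2.93 (1.11 to 8.58). Slc17a7 and other glutamatergic markers summed to 1192, 1499, 1305 and 1117 CPM in these nuclei, highest at day 1 as Bdnf was, and their part in the Bdnf value was not tested. Bdnf was also called higher in middle-layer nuclei of the day 7 library, 1.84 (0.771 to 4.22), a call lost under 3 of 10 alternatives (1.25 to 1.49), and lower in deep-layer nuclei of the day 3 library, 0.643 (0.268 to 1.53), and in subcortical glutamatergic nuclei at day 1, 0.646 (0.237 to 1.72). These 3 intervals include 1. Summed over all neurons, Bdnf stood at 20.4, 24.95, 18.0 and 16.3 CPM, a sum that moves with the makeup of each library.

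**Figure D2:**
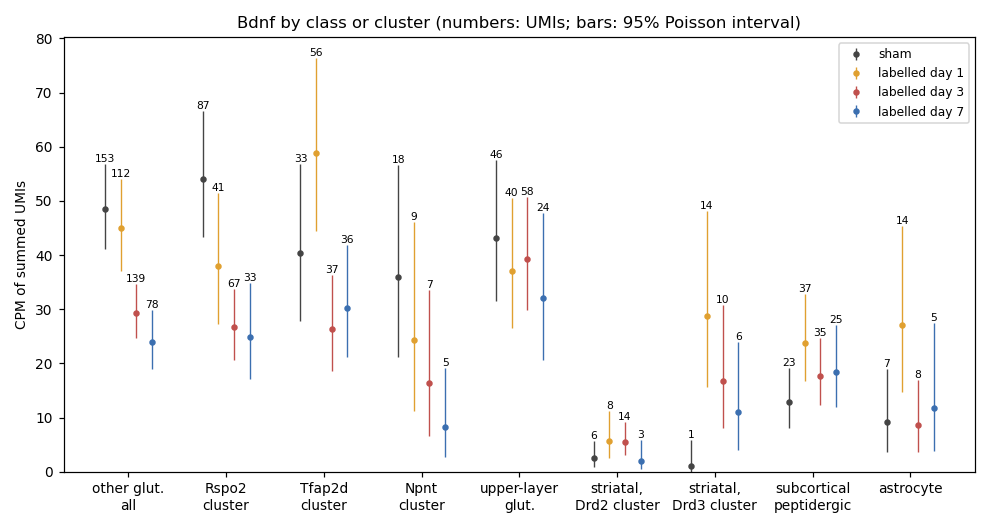
Bdnf in CPM (y axis, linear, starting at 0) in classes and single clusters of nuclei, with 1 point per library, exact Poisson 95% intervals as bars and the number of UMIs above each bar. In the other glutamatergic class the day 3 and day 7 points (29.3 and 23.9) lie below those of sham control and day 1 (48.5 and 45.0), and in the Drd3 cluster the sham point rests on 1 UMI and 13 of the 14 day 1 UMIs come from 1 nucleus.

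Ntf3, the ligand of TrkC, was rare. Its 272 UMIs were spread over several classes, with the highest levels in 3 clusters. The cluster with dentate granule markers held 7, 25, 17 and 39 UMIs, 158, 79.6, 49.0 and 69.4 CPM. Ntf3 stood among its 10 leading genes, and the cluster held 4 nuclei in the sham library, so no comparison of libraries is made there. A GABAergic cluster led by Ano1, Gpc3 and Prdm16 held 9, 2, 20 and 4 UMIs from 28, 10, 29 and 15 nuclei, 37.2, 17.1, 95.3 and 32.5 CPM. The glutamatergic cluster led by Tfap2d and Ndst4 held 18, 6, 22 and 17 UMIs, 22.1, 6.30, 15.6 and 14.3 CPM, whereas the larger Rspo2 cluster of the same class held 0, 0, 2 and 0 UMIs. Upper-layer nuclei stood at 3.75, 5.57, 5.41 and 6.68 CPM on 4, 6, 8 and 5 UMIs.

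In the other GABAergic class, which holds the Prdm16 cluster, Ntf3 stood at 12.6, 8.21, 33.7 and 11.2 CPM. The day 3 ratio of 2.67 (1.18 to 6.58) passed 1.5-fold, and it passed under all 10 alternatives that gave a value (1.74 to 3.09). The other cluster of that class, led by Chst9 and Npffr2, held 0, 1, 2 and 0 UMIs. In the other glutamatergic class the levels were 5.70, 2.41, 5.27 and 5.22 CPM, and the day 1 ratio of 0.423 (0.137 to 1.11) rests on 6 against 18 UMIs, with an interval that includes 1. Ntf3 gave 0 UMIs in oligodendrocyte-like, OPC-like and Adarb2 interneuron-like nuclei of every library. In the oligodendrocyte-like class of the sham library the floor of 3 UMIs is a level of 3.75 CPM, and the exact Poisson interval of 0 UMIs reaches 4.62 CPM.

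**Figure D3:**
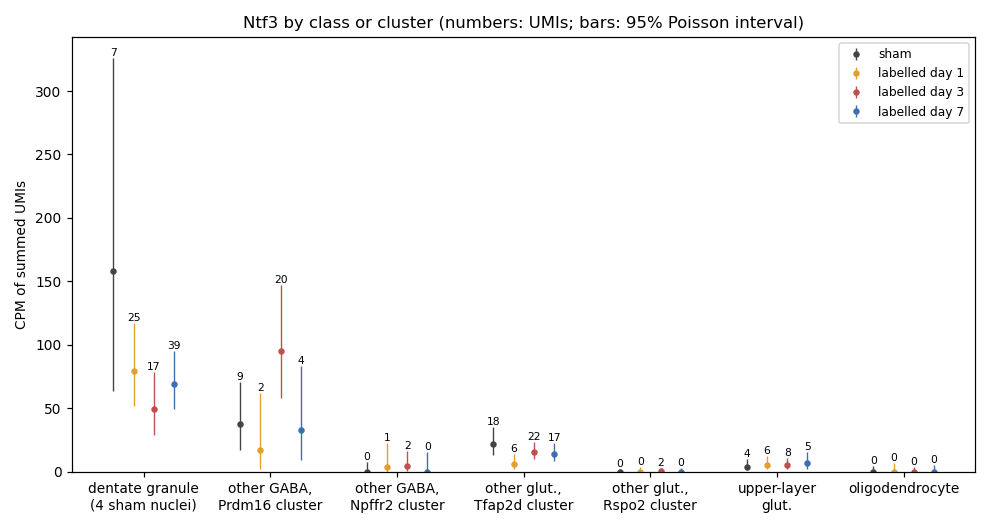
Ntf3 in CPM (y axis, linear, starting at 0) in single clusters and classes, with 1 point per library, exact Poisson 95% intervals as bars and the number of UMIs above each bar. The dentate granule-like cluster (49.0 to 158 CPM) and the Prdm16 cluster (up to 95.3 CPM in the day 3 library) stand above the others, and the sham point of the former rests on 7 UMIs from 4 nuclei.

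Ntrk2, encoding the receptor of brain-derived neurotrophic factor, was counted in every class. Astrocyte-like nuclei were the highest, at 996, 929, 1162 and 1093 CPM on 755, 481, 1085 and 465 UMIs, above the next class in sham control beyond counting error. Middle-layer nuclei (817, 698, 731 and 699 CPM), Adarb2 interneuron-like nuclei (785, 687, 939.6 and 913) and Lhx6 interneuron-like nuclei (750.2, 761, 819 and 868) came next and did not differ from each other beyond counting error in sham control. The other neuronal classes lay between 423 and 737 CPM, and OPC-like nuclei stood at 486, 514, 485 and 418. Microglia-like and oligodendrocyte-like nuclei were the lowest. Per kilobase, astrocyte-like nuclei held 3.04, 2.84, 3.55 and 3.34 CPM per kb of Ntrk2 against 0.176, 0.517, 0.164 and 0.225 of Bdnf.

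In no neuronal class did Ntrk2 pass 1.5-fold. In the striatal class it stood at 477, 423, 685 and 432 CPM, and the day 3 ratio was 1.44 (1.35 to 1.54) while those at day 1 and day 7 were 0.887 and 0.907. In astrocyte-like nuclei the ratios were 0.933 (0.831 to 1.05), 1.17 (1.06 to 1.28) and 1.10 (0.976 to 1.23). The largest ratio lay in oligodendrocyte-like nuclei of the day 3 library. Their levels were 110.1, 94.4, 239 and 94.7 CPM on 88, 54, 259 and 67 UMIs, the other 3 libraries being close to each other, and the day 3 ratio was 2.17 (1.70 to 2.79).

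Several values stood beside that ratio. The free RNA level of Ntrk2 in these nuclei was 63.4, 57.7, 86.2 and 62.2 CPM, also highest in the day 3 library. Summed glutamatergic markers stood at 769.8, 709.5, 1167 and 618 CPM, and astrocyte markers at 648, 538, 1049 and 756 CPM. Subtracting free RNA raised the ratio to 3.07 or 3.37, the mean over nuclei gave 1.56, and thinning to 1000 UMIs gave 1.36, within 1.5-fold. By cluster, the levels were 135, 103, 258 and 122 CPM in the cluster led by Aspa and Il33, 70.3, 63.3, 118 and 30.4 in that led by Anln and Hapln2, and 52.5, 89.2, 309.9 and 72.0 in that led by Cldn14 and Opalin. The part of the other cell types' RNA in the result was not tested. In microglia-like nuclei Ntrk2 stood at 328, 296, 176 and 228 CPM and was called lower in the day 3 library, 0.537 (0.382 to 0.755), but the call was lost under 5 of 11 alternatives (0.683 to 1.26), of which thinning turned its direction.

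Ntrk3, encoding the receptor of neurotrophin-3, was highest in striatal projection neuron-like nuclei of the sham library. Its levels there were 856, 783, 932 and 833 CPM on 2797, 1485, 2922 and 1696 UMIs, with ratios of 0.915, 1.09 and 0.974. The dentate granule-like cluster stood at 1085, 1124, 1104 and 938 CPM, so that Ntf3 and Ntrk3 were both high in it. Upper-layer nuclei stood at 754, 907, 1056 and 1019 CPM, other GABAergic nuclei at 758, 706, 836 and 650.0, OPC-like nuclei at 695, 618, 613 and 571 and deep-layer nuclei at 659.6, 622, 623 and 533. Of these, the upper-layer and other GABAergic classes did not differ beyond counting error in sham control, nor did OPC-like and deep-layer nuclei. The lowest neuronal levels were those of middle-layer (267, 335, 285 and 270.4 CPM) and subcortical glutamatergic nuclei (247, 227, 299 and 233).

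Ntrk3 was higher than in sham control in several neuronal classes. In the other glutamatergic class the levels were 369, 580.0, 488 and 498 CPM on 1164, 1444, 2311 and 1622 UMIs, and all 3 libraries after MCAO lay above sham control beyond counting error. The ratios were 1.57 (1.45 to 1.70), 1.32 (1.23 to 1.42) and 1.35 (1.25 to 1.46), of which the day 1 ratio passed 1.5-fold and ranged from 1.46 to 1.63 over the alternatives. In upper-layer nuclei the ratios were 1.20 (1.09 to 1.32), 1.4 (1.29 to 1.53) and 1.35 (1.22 to 1.49), within 1.5-fold. Lhx6 interneuron-like nuclei, the class with Sst and Pvalb, stood at 406, 479.9, 640.0 and 630.2 CPM. Their ratios were 1.18 (1.01 to 1.37), 1.57 (1.38 to 1.80) and 1.55 (1.36 to 1.78), the last 2 past 1.5-fold, and they ranged from 1.45 to 1.73 and from 1.45 to 1.90 over the alternatives. The small cluster of this class with Pvalb was not higher in these 2 libraries, at 153, 256, 112 and 108 CPM on 25, 41, 13 and 7 UMIs. In Adarb2 interneuron-like nuclei the levels were 500.5, 465, 389 and 329 CPM, and the day 7 ratio was 0.656 (0.457 to 0.927), lower on 45 UMIs from 20 nuclei.

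In glia Ntrk3 was low outside OPC-like and astrocyte-like nuclei. Oligodendrocyte-like nuclei stood at 95.1, 50.7, 165 and 66.4 CPM, with a free RNA level of 41.4, 39.5, 59.9 and 47.3. The day 1 ratio was 0.533 (0.335 to 0.827), and 62.1% of the day 1 UMIs came from 1 nucleus, and without the top nucleus of each library it was 0.240. The day 3 ratio was 1.73 (1.32 to 2.30), in the library in which Ntrk2 and the glutamatergic markers of this class were also highest. Microglia-like nuclei stood at 241, 296, 128 and 148 CPM, with a free RNA level of 36.9, 24.0, 67.6 and 42.9. They were called lower in the day 3 library, 0.531 (0.354 to 0.793), and in the day 7 library, 0.616 (0.401 to 0.941), the former within 1.5-fold under 5 of 11 alternatives (0.706 to 0.845). The neuronal marker genes Slc17a7 and Gad2 stood at 74.1 to 100.7 and 61.3 to 87.5 CPM in microglia-like nuclei. Slc17a7 stood at 235 to 268 CPM in other glutamatergic nuclei, and Gad2 at 230 to 257 in striatal nuclei. The part of neuronal RNA in the Ntrk3 values was not tested.

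Ngfr, encoding the p75 receptor, gave 1, 3, 9 and 5 UMIs over all nuclei of the 4 libraries. In each of the 14 classes and each library it held at most 3 UMIs, so no level could be told from absence in any class at this depth, and no ratio is given. Over all nuclei the levels were 0.0607 (0.00154 to 0.338), 0.232 (0.0478 to 0.677), 0.426 (0.195 to 0.808) and 0.372 (0.121 to 0.869) CPM, with the sums of the day 3 and day 7 libraries over 3 UMIs and intervals that overlap in all 4 libraries.

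Sort1, encoding sortilin, was counted in every class. In sham control oligodendrocyte-like nuclei were the highest, at 207, 185, 172 and 256 CPM on 165, 106, 187 and 181 UMIs, followed by microglia-like nuclei with 188, 153, 186 and 156, which did not differ from them beyond counting error in sham control. Astrocyte-like nuclei stood at 152, 176, 111 and 115 CPM. Neuronal classes lay between 65.7 and 197 CPM. OPC-like nuclei were the lowest, at 31.9, 56.2, 53.3 and 49.4 CPM, so that in sham control the precursor class and the oligodendrocyte-like class stood at opposite ends. Above the oligodendrocyte-like level stood middle-layer nuclei at day 1 (197 CPM) and microglia-like nuclei in the day 3 library (186). Per kilobase, oligodendrocyte-like nuclei held 2.67, 2.39, 2.23 and 3.30 CPM per kb of Sort1 and 1.74, 1.76, 1.77 and 1.62 of Sorcs1.

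Sort1 was called higher in upper-layer nuclei at day 1, where it stood at 125, 194, 152 and 163 CPM with a ratio of 1.56 (1.25 to 1.95), and 7 of its 11 alternatives kept that call. It was called higher in Lhx6 interneuron-like nuclei at day 1, 1.51 (1.08 to 2.10), a call lost under 3 of 10 alternatives (1.30 to 1.48), and in subcortical glutamatergic nuclei of the day 3 library, 1.57 (1.05 to 2.40). The OPC-like ratios of 1.76 (0.710 to 4.61), 1.67 (0.739 to 4.12) and 1.55 (0.584 to 4.23) passed 1.5-fold on 9, 14, 22 and 11 UMIs, with intervals that include 1. Sort1 was called lower in no class.

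Sorcs1, a sortilin relative, was highest in classes of both neurons and glia. Other GABAergic nuclei stood at 941, 829, 1059.8 and 859 CPM, middle-layer nuclei at 936, 1096, 1025 and 941 and oligodendrocyte-like nuclei at 934, 944, 948 and 865 on 746, 540, 1028 and 612 UMIs. OPC-like nuclei stood at 819, 758, 705 and 679 CPM and Adarb2 interneuron-like nuclei at 804, 708, 1012 and 431. In sham control each of these 5 classes did not differ from its neighbour in the order beyond counting error, and the fifth lay above the next class. The oligodendrocyte-like levels were far above the free RNA level of 38.7, 34.6, 54.9 and 38.6 CPM and nearly equal in the 4 libraries, with ratios of 1.01 (0.903 to 1.13), 1.01 (0.923 to 1.12) and 0.927 (0.831 to 1.03). Other glutamatergic, peptidergic and striatal nuclei followed, and deep-layer and microglia-like nuclei were the lowest in sham control.

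Deep-layer cortical nuclei, marked by Hs3st4 and Zfpm2, had more Sorcs1 in all 3 libraries after MCAO. The levels were 214, 289.8, 342 and 321 CPM on 298, 333, 683 and 351 UMIs, and the sham interval lay below each of the others. The ratios were 1.35 (1.15 to 1.59), 1.60 (1.39 to 1.83) and 1.50 (1.28 to 1.76). The day 3 ratio passed 1.5-fold under all 11 alternatives (1.53 to 1.69), and the day 7 ratio under 8 of 11, with 1.24 after thinning. In Adarb2 interneuron-like nuclei the day 7 level was 431 CPM and its ratio 0.536 (0.395 to 0.718), lower under all 11 alternatives. It rests on 20 nuclei, 1 of which gave 39.0% of the UMIs.

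In astrocyte-like nuclei Sorcs1 stood at 270.4, 247, 230.2 and 158 CPM, with a day 7 ratio of 0.583 (0.435 to 0.771). Subcortical glutamatergic nuclei stood at 308, 205, 337 and 292 CPM and were called lower at day 1, 0.666 (0.506 to 0.874), a call lost under 4 of 10 alternatives (0.680 to 0.803). In microglia-like nuclei the levels were 210.1, 453, 105 and 344 CPM, but 44.2%, 56.1% and 67.4% of the UMIs of the 3 libraries after MCAO came from 1 nucleus each. The ratios of 2.16, 0.499 and 1.64 became 1.48, 0.269 and 0.657 without the top nucleus of each library, so no direction is read for this class.

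Sorcs3, another sortilin relative, was highest in Adarb2 interneuron-like nuclei, which include those with Vip, at 967, 982, 939.6 and 1066 CPM on 255, 340, 285 and 146 UMIs. This level was above the next class, OPC-like nuclei at 621, 594, 524 and 589 CPM, beyond counting error. Lhx6 interneuron-like nuclei were the lowest in sham control, at 80.6, 86.3, 86.3 and 147 CPM. In sham control the 2 interneuron classes thus stood at opposite ends of the order. Peptidergic nuclei stood at 516, 508, 515 and 567 CPM and upper-layer nuclei at 464, 634, 615 and 655. Oligodendrocyte-like and astrocyte-like nuclei were low, at 105, 108, 136 and 112 and 93.6, 149, 67.5 and 49.4 CPM.

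Sorcs3 lay above sham control beyond counting error, within 1.5-fold, in other glutamatergic and upper-layer nuclei of the 3 libraries after MCAO. In the other glutamatergic class it stood at 373, 529.8, 487 and 461 CPM, with ratios of 1.42 (1.31 to 1.54), 1.30 (1.21 to 1.399) and 1.23 (1.14 to 1.33). In upper-layer nuclei the ratios were 1.37 (1.22 to 1.54), 1.33 (1.19 to 1.48) and 1.41 (1.24 to 1.60). All 6 of these intervals exclude 1, as did those of Ntrk3 in the same classes. Not every cluster was higher, and in that led by Npnt and Parm1 the levels were 139, 37.8, 138 and 75.4 CPM. Deep-layer ratios were 1.27 (1.07 to 1.50), 1.19 (1.02 to 1.38) and 1.18 (0.986 to 1.41), and middle-layer ratios 1.15 (0.876 to 1.50), 1.11 (0.877 to 1.42) and 1.31 (0.959 to 1.77), of which the last 4 intervals include 1. The small deep-layer cluster led by Tshz2 went the other way, at 264, 0, 34.0 and 121 CPM on 39, 0, 6 and 6 UMIs. In subcortical glutamatergic nuclei the levels were 333, 494, 513 and 301 CPM and the day 3 ratio, 1.54 (1.25 to 1.90), was called higher, with 1.20 after thinning. The Lhx6 interneuron-like ratio in the day 7 library was 1.83 (1.36 to 2.47), a range of 1.50 to 1.96 over the alternatives.

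In glia 1 nucleus held 39.6% to 74.1% of the Sorcs3 UMIs of the library behind each of the 4 calls. The astrocyte-like ratio at day 1, 1.59 (1.14 to 2.23), was 1.07 without the top nucleus of each library. The day 7 ratio, 0.527 (0.308 to 0.868), was 0.363 without those nuclei and 1.14 when doublets were kept. In microglia-like nuclei the day 1 ratio was 2.03 (1.25 to 3.38), and 2.12 without the top nuclei, with the call lost under 2 of 10 alternatives (1.401 to 1.45). The day 7 ratio of 1.84 (1.14 to 3.05) was 0.827 without them, 1 nucleus having held 74.1% of its UMIs.

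Counted over the 8 genes and 14 classes, 79, 78 and 75 of 112 gene-class pairs reached 20 UMIs in the comparisons of day 1, day 3 and day 7 with sham control. Ngfr reached it in none. At day 1, 10 pairs (12.7%) were past 1.5-fold higher, against 11.0% of the pairs of all genes, and 4 (5.06%) were lower, against 10.6%. In the day 3 library 9 were higher (11.5%, all genes 9.04%) and 5 lower (6.41%, all genes 9.94%). In the day 7 library 7 were higher (9.33%, all genes 8.68%) and 6 lower (8.0%, all genes 12.9%). The shares of higher pairs were near those of all genes, and the shares of lower pairs were below them. The pairs of all genes were not matched to these in count depth. A pair near the minimum of 20 UMIs passes 1.5-fold more easily through counting error. This limit also holds for the lists below. The median log2 ratios of the pairs were 0.02, 0.10 and -0.08.

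Of the 41 pairs past 1.5-fold, 34 had an interval that excludes 1, and 10 passed 1.5-fold under every alternative in processing that gave a value, 8 to 11 alternatives each. The 2-fold threshold and the minimum of 5 UMIs, which change the call itself, are not counted here. These 10 were Bdnf in astrocyte-like and peptidergic nuclei at day 1, in striatal nuclei at day 1 and in the day 3 library, and in other glutamatergic nuclei of the day 7 library, Ntf3 in other GABAergic nuclei of the day 3 library, Ntrk3 in oligodendrocyte-like nuclei at day 1 and in microglia-like nuclei of the day 7 library, and Sorcs1 in deep-layer nuclei of the day 3 library and in Adarb2 interneuron-like nuclei of the day 7 library. For Bdnf in astrocyte-like and striatal nuclei at day 1, the sums without the top nuclei held 9 and 5 UMIs in each case, under the minimum of 20, so that alternative was not among those counted. For Ntrk3 in oligodendrocyte-like and microglia-like nuclei, no alternative takes out RNA of neurons beyond free RNA, and its part was not tested.

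**Figure D4:**
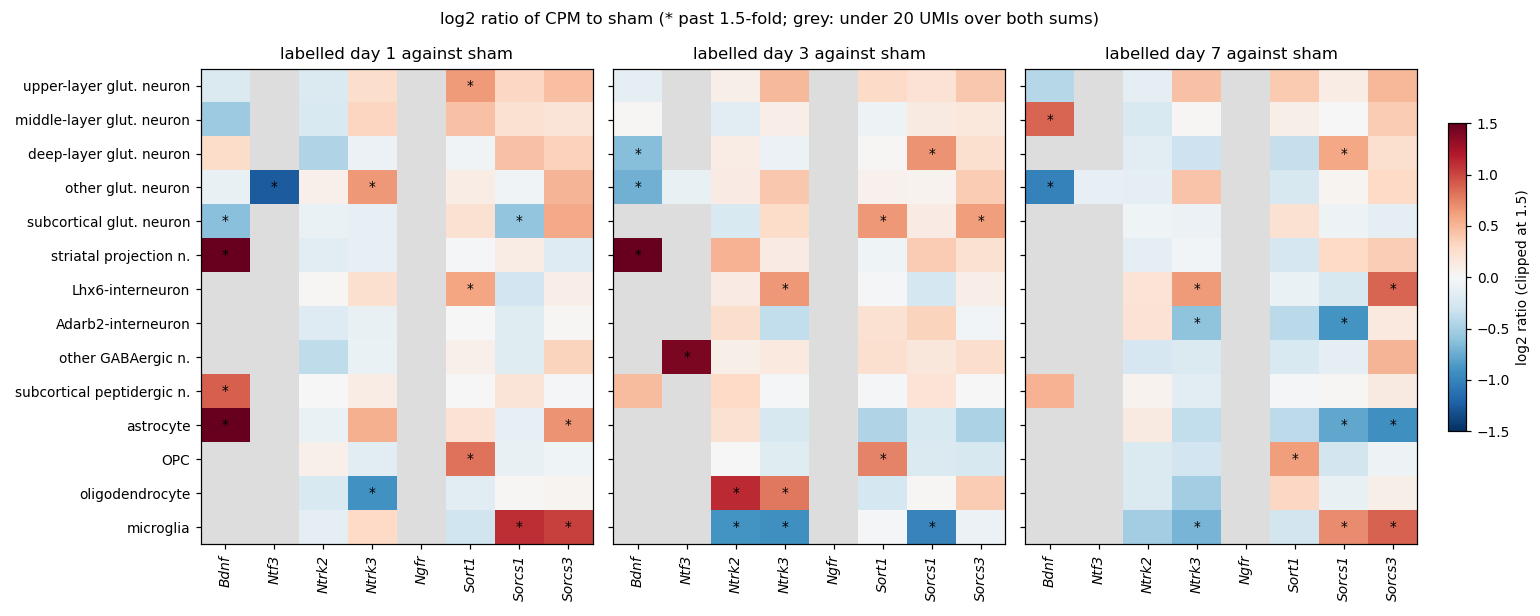
Ratio to sham control on the log2 scale (colour) clipped at 1.5 either way, for the 8 genes (columns) in 14 classes (rows), in 1 panel for each library after MCAO, with an asterisk where the ratio passed 1.5-fold and grey where both libraries together held under 20 UMIs. The asterisks number 14, 14 and 13, and the Ngfr column is grey throughout.

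Other genes of the pathway were described from fixed lists. The activity-regulated genes, 15 genes whose transcription follows neuronal activity, had the largest share of lower pairs among the lists in the day 3 and day 7 libraries. Of 80, 82 and 75 pairs, 17, 25 and 35 were lower (21.2%, 30.5% and 46.7%) and 8, 10 and 4 higher (10%, 12.2% and 5.33%). Of the pairs of all genes, 10.6%, 9.94% and 12.9% were lower and 11.0%, 9.04% and 8.68% higher in the same comparisons. In the other glutamatergic class, where Bdnf was lower in the day 3 and day 7 libraries, Arc, a regulator of synaptic receptors, stood in the day 7 library at 6.45 against 26.6 CPM in sham control, a ratio of 0.242 (0.143 to 0.395). Its ratios at day 1 and in the day 3 library were 0.377 (0.231 to 0.596) and 0.396 (0.274 to 0.569), beside 0.928 and 0.605 for Bdnf. In upper-layer nuclei of the day 7 library the transcription factor genes Junb and Egr1 had ratios of 0.252 (0.0864 to 0.606) and 0.303 (0.113 to 0.695), beside 0.744 (0.434 to 1.24) for Bdnf.

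At day 1 the largest such share was that of the proneurotrophin cleavage list (31.5%). This list, 7 genes of proteases that cut neurotrophin precursors or act near them, had 17, 14 and 14 lower and 8, 9 and 8 higher of 54, 60 and 51 pairs. The lower shares, 31.5%, 23.3% and 27.5%, and the higher shares, 14.8%, 15% and 15.7%, both lay above those of all genes (10.6%, 9.94% and 12.9% lower, 11.0%, 9.04% and 8.68% higher). Pcsk5, a proprotein convertase gene, stood in Adarb2 interneuron-like nuclei at day 1 at 118 against 30.3 CPM in sham control, a ratio of 3.90 (1.81 to 9.64), and in upper-layer nuclei of the day 7 library its ratio was 2.85 (1.95 to 4.24). In subcortical glutamatergic nuclei at day 1 its ratio was 0.395 (0.225 to 0.673). Pcsk1 was lower in several neuronal classes. In other glutamatergic nuclei its ratios were 0.483 (0.386 to 0.604) in the day 3 library and 0.472 (0.365 to 0.607) in the day 7 library. In upper-layer nuclei at day 1 the Pcsk1 ratio was 0.400 (0.222 to 0.695). Plat, which encodes tissue plasminogen activator, stood in oligodendrocyte-like nuclei of the day 7 library at 16.96 against 43.8 CPM in sham control, a ratio of 0.387 (0.183 to 0.764). Pcsk2, a convertase gene of neurons and endocrine cells, had a ratio of 0.337 (0.248 to 0.455) in microglia-like nuclei of the day 3 library, in which Slc17a7 was also counted.

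The Trk adaptor and signalling list of 21 genes had 13, 19 and 13 pairs higher and 10, 13 and 11 lower of 221, 236 and 220. These are 5.88%, 8.05% and 5.91% higher, against 11.0%, 9.04% and 8.68% of all genes, and 4.52%, 5.51% and 5% lower, against 10.6%, 9.94% and 12.9%. The adaptor gene Sh2b2 stood in oligodendrocyte-like nuclei at day 1 at 66.4 against 16.3 CPM in sham control, a ratio of 4.08 (2.13 to 8.35). Shc3 in the same class of the day 3 library had a ratio of 2.14 (1.05 to 4.71), and Gab1 in striatal nuclei of the day 7 library 2.14 (1.30 to 3.56). Of the p75 adaptors and co-receptors, 10 genes, 9, 9 and 10 pairs were higher and 9, 10 and 16 lower of 92, 100 and 88. At 9.78%, 9% and 11.4% higher and 9.78%, 10% and 18.2% lower these shares were near those of all genes, apart from the lower share in the day 7 library (12.9% of all genes). Arhgdia had a ratio of 3.00 (1.46 to 6.77) in astrocyte-like nuclei of the day 3 library, and Maged1 one of 0.350 (0.164 to 0.687) in those of day 1. Ngfrap1 had a ratio of 0.405 (0.203 to 0.763) in oligodendrocyte-like nuclei of the day 7 library.

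Of the other neurotrophins and receptors, 5 genes, 1, 1 and 2 of 30 pairs were higher and 3, 4 and 5 lower. The shares were 3.33%, 3.33% and 6.67% higher, against 11.0%, 9.04% and 8.68% of all genes, and 10%, 13.3% and 16.7% lower, against 10.6%, 9.94% and 12.9%. Sorcs2, the remaining Sorcs gene, stood in OPC-like nuclei of the day 3 library at 38.8 against 109.9 CPM in sham control, a ratio of 0.353 (0.1802 to 0.665), and its ratios in the same class were 0.547 (0.275 to 1.05) at day 1 and 0.572 (0.281 to 1.11) in the day 7 library. On the log2 scale the Sorl1 ratio furthest from 1 was that of microglia-like nuclei at day 1, 0.590 (0.297 to 1.14), with an interval that includes 1. Its ratios in the day 7 library were 1.59 (1.10 to 2.29) in other GABAergic nuclei and 1.46 (1.08 to 1.98) in astrocyte-like nuclei. Both of these intervals exclude 1.

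**Figure D5:**
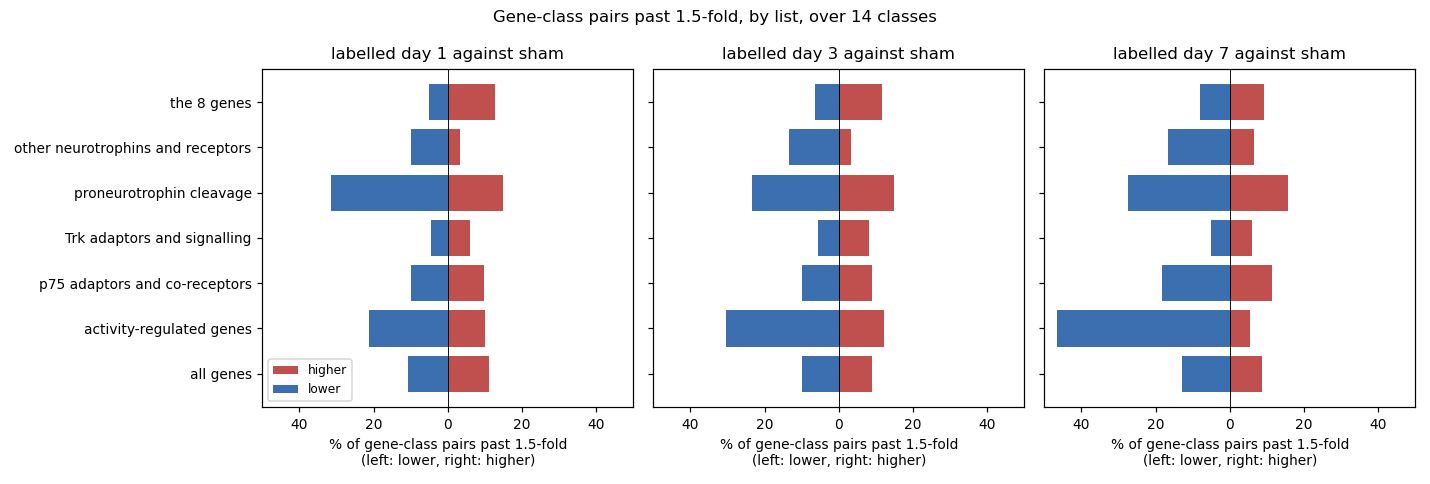
Percent of gene-class pairs past 1.5-fold higher and lower than sham control (x axis, bars from 0, lower to the left and higher to the right) for the 8 genes, the 5 other lists and all genes (y axis), in 1 panel for each of the 3 libraries after MCAO. The lower share of the activity-regulated list, 46.7% in the day 7 library, stands above the 12.9% of all genes, and the share of the 8 genes, 8.0%, stands below it.

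The genes whose levels followed each of the 8 most closely were found among 8415 genes by Pearson's correlation of log2(CPM + 10) over 56 points, 14 classes in 4 libraries. Points of 1 library share its depth and those of 1 class its cells, so the values are descriptions. For Bdnf they were C1ql3 (r = 0.787), Nrn1 (r = 0.705) and Fam19a1 (r = 0.681). For Ntf3 they were Npffr2 (r = 0.699), Otof (r = 0.5999) and Myo5b (r = 0.594), with a gene that gave 0 UMIs at many points. For Ntrk2 they were Fmn2 (r = 0.913), Trim9 (r = 0.897) and Adgrb3 (r = 0.863), and for Ntrk3 Trerf1 (r = 0.913), Adgrl3 (r = 0.877) and Dok6 (r = 0.877). For Sort1 they were Dopey2 (r = 0.708), Acap2 (r = 0.674) and Dip2b (r = 0.668), for Sorcs1 Tmem178b (r = 0.687), Abca8b (r = 0.661) and Ncam2 (r = 0.646), and for Sorcs3 Kcnd3 (r = 0.792), Zcchc16 (r = 0.778) and Susd4 (r = 0.746). Among the 8 genes themselves, the highest correlation was that of Ntrk2 with Ntrk3 (r = 0.590) and the lowest that of Ntrk3 with Sort1 (r = -0.444). Bdnf and Ntrk2 had r = -0.0378.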

How the data were processed

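Nuclei of 4 libraries, each from 3 pooled hemispheres, had been sequenced on a droplet platform. Per the study's methods, the authors mapped reads to GRCm38 with STAR 2.7.3a in its solo mode and took exons and introns together when counting genes of the GENCODE vM8 annotation. The deposited values are raw UMI counts per gene and barcode, without a filter on barcodes or removal of free RNA. A UMI count stands for captured molecules, not reads, and the intervals cover counting error only.

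Groups came from the labels. Barcodes holding nuclei were found in each library by emptyDrops, re-implemented here (ambient barcodes of at most 1000 UMIs, 10000 Monte Carlo draws, false discovery rate under 0.001) and clustered with Seurat 5.3.0 and sctransform 0.4.2 in R 4.3.3 on 30 integrated components at resolution 0.8. The 8 genes and all list genes were left out of the clustering features. The highest-scoring 0.8% per 1000 nuclei by Scrublet (scanpy 1.11.5) were removed as doublets after clustering. Clusters were named by the mean of the 5 highest log2 folds of fixed markers (pseudocount 5 CPM), a rule set after the clusters had been seen, and 3 of 32 clusters with 227 nuclei stayed unnamed. The calling, the sums and the intervals were tested on simulated data.

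UMIs were summed per class and library with Python 3.11.15 and scipy 1.17.1. With 1 library per group, no p-value was computed. Beyond the 8 genes, the text names from each list the 3 genes whose ratio in a class lay furthest from 1 on the log2 scale. These were taken among genes with at least 40 UMIs over both libraries. Pcsk1 is named in addition, and of the other neurotrophins and receptors Sorcs2 and Sorl1 alone are named. For each of the 8 genes the text names the 3 genes most like it in level among those that reach 50 CPM in a class. Bdnf, Ntf3 and Ngfr do not reach 50 CPM in these classes, and the genes most like Ngfr are not given because its counts are at the floor. The 8 genes and the lists were chosen with earlier results of these data known. The alternatives were the mean over nuclei, thinning to 1000 UMIs, nuclei over 2000 UMIs, TMM scaling (edgeR 4.0.16), subtraction of free RNA (10% of each nucleus, or the same number for each), no removal of doublets, the top nucleus left out, no integration, resolution 1.4, a minimum of 5 UMIs and a 2-fold threshold. Weighting the clusters of a class as in sham control was added after seeing the data.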

Additional observations from a re-analysis of the deposited data

Results flagged for a closer look

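In 9 cases a gene was past 1.5-fold higher in 1 class and past it lower in another in the same library, with both intervals excluding 1. The difference between the classes was not tested in any of them. Such cases were not counted over all genes, so whether 9 is many is not known. Of the gene-class pairs of all genes, 8.68% to 11.0% were higher and 9.94% to 12.9% lower, whatever their intervals. At day 1, Ntrk3 had a ratio of 1.57 in other glutamatergic nuclei and 0.533 in oligodendrocyte-like nuclei, and Sorcs1 had 2.16 in microglia-like and 0.666 in subcortical glutamatergic nuclei, the latter called under 6 of 10 alternatives.

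In the library labelled day 3, Bdnf had a ratio of 3.58 in striatal nuclei and 0.605 in other glutamatergic nuclei, the sham level of the former being near that of free RNA. Ntrk2 had 2.17 in oligodendrocyte-like and 0.537 in microglia-like nuclei, and Ntrk3 had 1.73 and 0.531 in the same classes. Sorcs1 had 1.60 in deep-layer and 0.499 in microglia-like nuclei.

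In the library labelled day 7, Ntrk3 had a ratio of 1.55 in Lhx6 interneuron-like and 0.616 in microglia-like nuclei. Sorcs1 had 1.64 in microglia-like and 0.536 in Adarb2 interneuron-like nuclei, and Sorcs3 had 1.84 in microglia-like and 0.527 in astrocyte-like nuclei. No direction is read from the microglia-like values of Sorcs1 and from that of Sorcs3 at day 7, which turned or fell within 1.5-fold without the top nuclei or at another clustering, nor from those of Ntrk2 and Ntrk3 in the day 3 library, called under 6 of 11 alternatives each. Thinning turned the Ntrk2 ratio to 1.26.

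Clusters that no class name could be given to were outside the comparisons, and 5 of their values stood past 1.5-fold above sham control with an interval that excludes 1. In the cluster in which no class led, Ntrk2 stood at 1121 CPM in the day 7 library, on 15 UMIs of which 86.7% came from 1 nucleus, against 243 in sham control. Sorcs1 in the same cluster stood at 424 CPM at day 1 and 283 in the day 3 library, against 27.0 on 1 UMI in sham control. In the cluster with markers of 2 classes, Sorcs1 stood at 977 CPM in the day 7 library on 29 UMIs, against 446 in sham control. In the cluster led by mitochondrial and heat-shock genes, Sorcs3 stood at 156 CPM in the day 3 library on 63 UMIs, against 69.9. These 5 are higher values only, and lower ones also occurred. In the last cluster Ntrk2 stood at 453 CPM at day 1 and 422 in the day 7 library, against 709 in sham control. Ntrk3 stood there at 241 CPM in the day 3 library, against 420 in sham control. The intervals of these lower levels did not overlap those of sham control.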

How the results depend on the processing

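The number of gene-class pairs past 1.5-fold, 14, 14 and 13 in the day 1, day 3 and day 7 libraries, stayed within 1.5 times itself under most alternatives. A 2-fold threshold left 5, 4 and 1. Leaving out the nucleus with the most UMIs of each gene left 6 at day 1, clustering without integration left 9 at day 1, and thinning left 8 in the day 3 library. Keeping doublets left 8 and 6 in the day 3 and day 7 libraries, and a minimum of 5 UMIs gave 22 in the day 7 library. By the alternatives' construction, a higher fold and fewer nuclei leave fewer pairs. Otherwise the cause was not tested. Of the 41 pairs, 38 kept their call under TMM scaling, 40 with the clusters weighted as in sham control, 37 at resolution 1.4, 29 with the mean over nuclei, 27 without integration and 23 with doublets kept. Of pairs that still had 20 UMIs, 27 of 34 did without the top nucleus and 8 of 18 after thinning. The direction turned in 9 cases: Ntrk2 in microglia-like nuclei of the day 3 library after thinning (1.26), Sorcs1 in the same nuclei without integration (1.01) and at resolution 1.4 (1.53), Sorcs1 in microglia-like nuclei of the day 7 library after thinning (0.745), without the top nucleus (0.657) and without integration (0.915), Sorcs3 in microglia-like nuclei of that library with the mean over nuclei (0.810) and without the top nucleus (0.827), and Sorcs3 in its astrocyte-like nuclei with doublets kept (1.14). Subtracting free RNA in proportion left the sham Bdnf sum of the striatal class at 0, so no ratio was given or counted there. No paired analysis was possible because each group holds 1 library. Depth limits Ngfr in every class, and Ntf3 and Bdnf in most.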

Other observations

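Among classes too small for the comparisons above, the dentate granule-like cluster, led by Il16, Shisa6 and Dsp, held 45 nuclei in both the day 3 and the day 7 library and 4 and 17 in the others. In these 2 libraries Ntrk3 stood at 1104 (996 to 1220.4) and 938 (859.8 to 1022) CPM and Sort1 at 208 (162 to 261) and 182 (148 to 220.4), with overlapping intervals. Ntrk2 stood at 692 (607 to 785) CPM in the former and 320.4 (275 to 371) in the latter, and Sorcs3 at 461 (393 to 539) and 183 (149.7 to 222), with intervals that do not overlap. In the 17 nuclei of day 1, Ntrk2 stood at 427 (358 to 505) CPM and Sorcs3 at 118 (83.0 to 162). The nucleus with the most UMIs gave 20.0% of the Sorcs3 UMIs of the day 3 library and 10.0% of those of Ntrk2.

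Fibroblast-like nuclei, marked by Bnc2 and Col1a2, held Ntrk3 at 499.7, 115, 576 and 727 CPM in 27, 11, 50 and 18 nuclei (5 UMIs at day 1), against a free RNA level of 33.8, 35.8, 42.3 and 38.3 CPM, while Bdnf gave at most 1 UMI in any library and Ntrk2 stood at 158, 115, 165 and 113 CPM. Ependymal-like nuclei, with Dnah12 and Hydin, genes of motile cilia, among their leading genes, held Ntrk2 at 706, 848, 977 and 978 CPM on 110, 95, 111 and 75 UMIs from 17, 7, 20 and 7 nuclei, below the astrocyte-like level in each library, in sham control beyond counting error. In endothelial-like nuclei Ntrk3 gave 3, 0, 108 and 1 UMIs, and 46.3% of those of the day 3 library came from 1 nucleus.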
